A study of Mus musculus with 18 samples.

Results

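The expression of 10 genes of purinergic signaling was examined in bone marrow-derived macrophages (BMMs), out of 38887 genes with values. They were listed by name for their place in the pathway, not by a cutoff on their values, although earlier results of these data were known. They comprise the ATP-gated channels P2rx4 and P2rx7, the nucleotide receptors P2ry2, P2ry6 and P2ry14, the adenosine receptors Adora2a and Adora2b, the ectonucleotidases Entpd1 (CD39) and Nt5e (CD73), and the deaminase Ada. RNA-Seq had been performed on 18 libraries, 3 for each of 3 genotypes without treatment and 3 for each after 4 h with 100 ng/ml lipopolysaccharide (LPS), the bacterial cell wall component that activates macrophages. The question was how these genes respond to LPS, and whether the loss or excess of the glucocorticoid-induced leucine zipper (GILZ), encoded by Tsc22d3, alters their expression.

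All mice were female C57BL/6J animals, 10 to 23 weeks old, and BMMs were grown from bone marrow for 6 days with 50 ng/ml M-CSF. Lyz2-Cre mice, which express Cre recombinase from the myeloid Lyz2 gene, served as wild-type (WT). GILZ knockout (GILZ KO) mice lose the loxP-flanked exon 6 of Gilz in Cre-expressing cells, and GILZ-overexpressing (GILZ TG) mice carry Cre together with a Gilz-1 cDNA in the ROSA26 locus behind a loxP-flanked stop cassette. Cre is thus described for all 3 genotypes, and both alterations depend on the activity of Cre in the myeloid lineage. The 3 libraries of a genotype and treatment are described as independent preparations. Whether untreated and LPS libraries came from the same preparations is not stated in the sources used here.

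Extracellular ATP and related nucleotides are released from stressed, activated or dying cells and are sensed by P2X channels and P2Y receptors coupled to G proteins. On the cell surface, CD39 converts ATP and ADP to AMP, and CD73 converts AMP to adenosine. Adenosine acts through its own receptors, of which those encoded by Adora2a and Adora2b raise cyclic AMP and dampen inflammatory responses of macrophages, until it is taken up or deaminated to inosine by adenosine deaminase. P2X7 is best known in macrophages as the ATP sensor upstream of the NLRP3 inflammasome.

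In the GRCm38 annotation, P2rx4 spans chr5:122707544-122729738 and P2rx7 chr5:122643911-122691432, both on the plus strand. P2ry6 (chr7:100937630-100974649), P2ry2 (chr7:100996568-101012866) and P2ry14 (chr3:59113855-59153618) lie on the minus strand. Adora2a spans chr10:75316877-75334784 and Adora2b chr11:62248984-62266453, both on the plus strand. Entpd1 (chr19:40612366-40741602) and Nt5e (chr9:88327197-88372092) lie on the plus strand, and Ada (chr2:163726584-163750239) on the minus strand.

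The upstream sequences of 5 of the genes are shown because their transcripts took different courses after LPS, although P2rx7 and P2rx4 are tandem neighbors on chromosome 5, with 16.1 kb between them. The sequences are from RefSeq (GRCm38.p6), run 5′ to 3′ on the strand of the gene, and end before the first annotated exon. The motifs searched on both strands in the 250 bases before each start were the NF-kB consensus, AP-1 (TGACTCA), the core of the ISRE and CRE (TGACGTCA). None of these overlaps another in the matches shown. Capitals mark a match.
P2rx7, chr5:122643677-122643910, plus strand: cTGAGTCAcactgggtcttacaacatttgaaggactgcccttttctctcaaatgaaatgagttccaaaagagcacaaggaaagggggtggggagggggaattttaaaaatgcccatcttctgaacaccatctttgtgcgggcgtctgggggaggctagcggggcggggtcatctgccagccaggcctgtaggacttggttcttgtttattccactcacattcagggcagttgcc
P2rx4, chr5:122707294-122707543, plus strand: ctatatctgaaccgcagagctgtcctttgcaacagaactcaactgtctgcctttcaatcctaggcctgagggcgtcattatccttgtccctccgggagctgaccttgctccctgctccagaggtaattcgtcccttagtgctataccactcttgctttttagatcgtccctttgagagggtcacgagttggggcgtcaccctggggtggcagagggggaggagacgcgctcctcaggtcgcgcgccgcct
P2ry14, chr3:59153619-59153742, minus strand: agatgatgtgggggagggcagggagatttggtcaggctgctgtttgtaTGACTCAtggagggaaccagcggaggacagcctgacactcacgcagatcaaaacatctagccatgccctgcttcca
Adora2b, chr11:62248734-62248983, plus strand: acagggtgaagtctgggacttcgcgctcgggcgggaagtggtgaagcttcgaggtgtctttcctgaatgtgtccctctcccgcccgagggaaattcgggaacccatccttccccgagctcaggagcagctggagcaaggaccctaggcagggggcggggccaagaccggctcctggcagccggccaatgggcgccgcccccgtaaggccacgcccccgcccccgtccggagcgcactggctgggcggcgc
Ada, chr2:163750240-163750489, minus strand: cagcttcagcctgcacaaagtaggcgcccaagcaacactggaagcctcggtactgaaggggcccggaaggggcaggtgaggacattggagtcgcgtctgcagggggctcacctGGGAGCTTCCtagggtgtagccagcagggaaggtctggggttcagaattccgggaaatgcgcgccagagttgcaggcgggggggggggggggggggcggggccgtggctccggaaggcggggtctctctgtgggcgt

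Upstream windows were at hand for 8 of the 10 genes. There were 14 windows, as some genes have more than 1 start. AP-1 letters occurred upstream of P2rx7 (TGAGTCA, the motif read on the other strand, bases -249 to -243 from the start) and of the most distal start of P2ry14 (bases -202 to -196). Positions count from the RefSeq start. The stretches shown for P2rx7 and P2ry14 stop short of it, as they end before the first annotated exon. The windows at the other starts of P2rx7 and P2ry14 held no match. AP-1 letters were found in 4.46% of 32851 promoter windows of the same length. An NF-kB match lay upstream of Ada (bases -137 to -128), against 7.25% of all windows. No ISRE core (2.98% of windows) and no CRE (1.55%) was found in the windows of these genes, and the windows of P2rx4 and Adora2b held none of the motifs. These matches are a description of letters only. Genes with a match included P2ry14, which rose after LPS, and P2rx7, which fell.

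Library totals lay between 14583055 and 38557029 reads on genes. Levels are given as TPM, the share of all transcripts scaled by transcript length, which can be compared between genes. Tsc22d3 averaged 16.5 TPM in untreated WT, 2.34 in GILZ KO and 156 in GILZ TG, in the order of the genotypes. Lyz2 averaged 12840 TPM in untreated WT against 33.6 in GILZ KO and 33.0 in GILZ TG, although Lyz2-Cre was described for all of them, so that a difference from WT cannot be told apart from one linked to the Lyz2 locus. The other 7 macrophage markers examined were detected in every library, and T-cell markers summed to at most 0.92 TPM and endothelial markers to at most 13.3 TPM. However, GILZ TG replicates 1 and 2 carried more RNA of other lineages than replicate 3. Without treatment the 8 stromal markers summed to 101 and 115 TPM in these libraries and 9.75 in replicate 3 (WT 11.2 to 21.8). The 7 neutrophil markers summed to 174 and 449 TPM against 62.2, and the 6 B-cell markers to 49.6 and 107 TPM against 19.3. The same order was seen after LPS. As the cells were measured in bulk, fewer cells of a type and less RNA per cell cannot be told apart.

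In untreated WT BMMs the receptors differed widely in level. P2ry6, the UDP receptor, was the most abundant of the 10 genes with 171 ± 7.99 TPM (SD, n = 3), followed by P2rx4 with 110.0 ± 5.50 TPM. P2rx7, P2ry2 and Adora2b followed with means between 16.8 and 21.8 TPM, and neighbors among them overlapped. The enzymes Ada (10.5 TPM) and Entpd1 (10.3 TPM) overlapped as well. P2ry14 had 2.19 TPM, Nt5e 0.507 TPM and Adora2a 0.257 TPM. After LPS the order in WT was P2rx4, P2ry6, Adora2b, P2ry14, Adora2a, P2ry2, P2rx7, Entpd1, Ada and Nt5e, and of these neighbors P2ry2 and P2rx7 alone overlapped. In GILZ KO the libraries of P2ry6 and Adora2b overlapped after LPS, at 89.4 ± 6.01 and 88.0 ± 6.75 TPM.

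**Figure D1:**
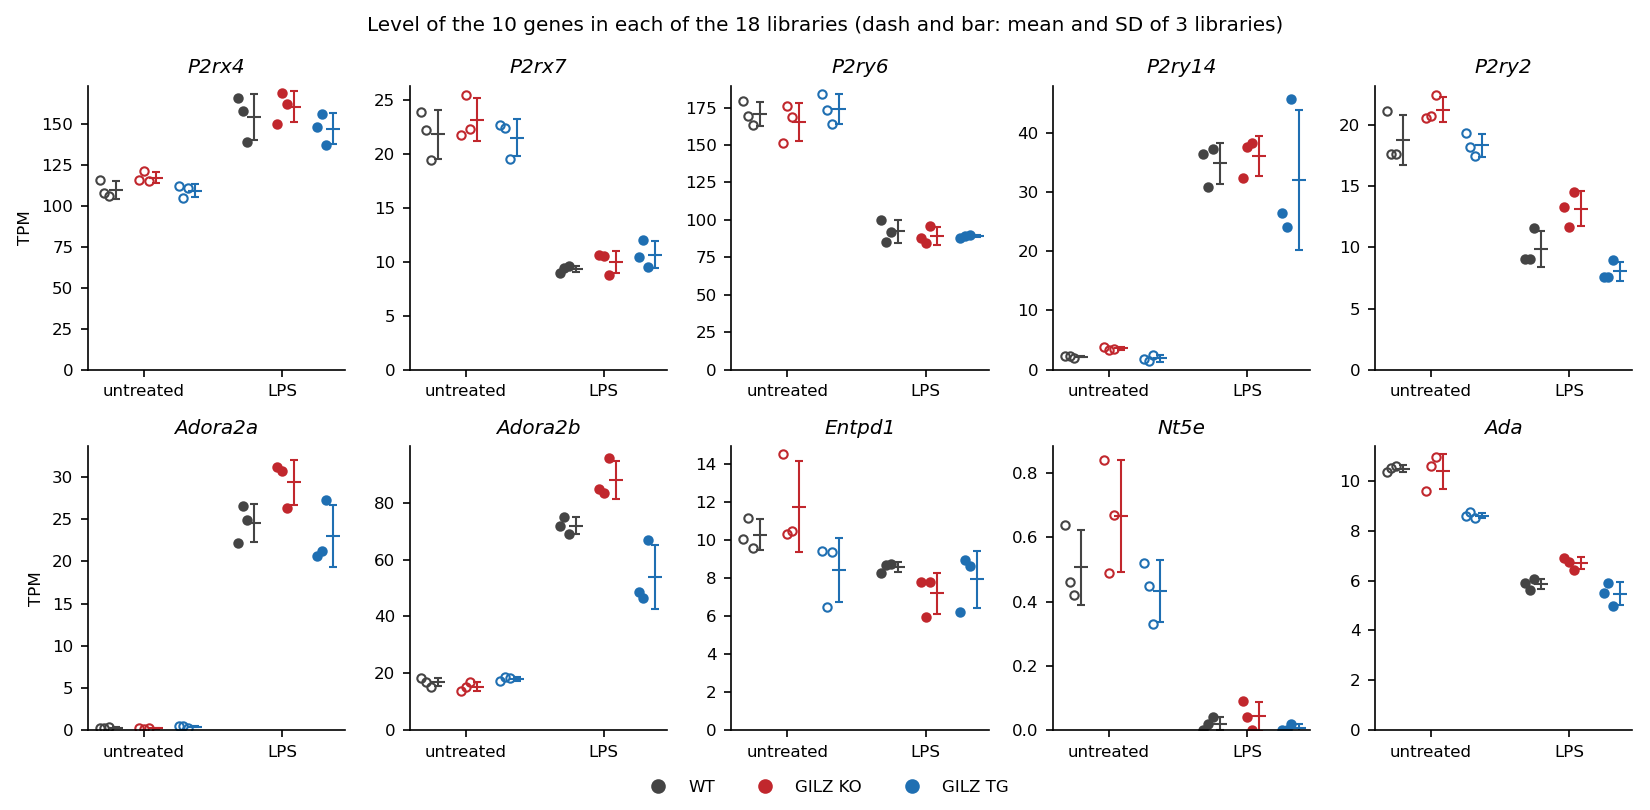
TPM (vertical axes from 0) of each gene in the 18 libraries, by treatment and genotype (gray WT, red GILZ KO, blue GILZ TG). Circles are libraries, with mean and SD beside them. Adora2a, Adora2b and P2ry14 separated fully by treatment, at most 0.5, 18.5 and 3.92 TPM without treatment and at least 20.6, 46.4 and 24.0 TPM after LPS.

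LPS changed most genes of the macrophages. In the main test (edgeR, TMM scaling), 68.6% of 13169 genes passed the threshold of an adjusted p under 0.05 in WT, 68.5% in GILZ KO and 68.7% in GILZ TG. Of the 10 genes, 10 passed in WT (5 higher, 5 lower), 7 in GILZ KO (4 higher, 3 lower) and 9 in GILZ TG (5 higher, 4 lower), where 33.5% of all genes were higher and 35.1% lower in WT, 33.2% and 35.4% in GILZ KO, and 33.6% and 35.1% in GILZ TG. TMM scaling centers the bulk of the genes on no change, with a median log2 change of -0.02. With library totals as the scale instead, the median gene fell by 0.70 in WT on the log2 scale, by 0.66 in GILZ KO and by 0.69 in GILZ TG. The calls in WT then shifted from 4415 higher and 4622 lower to 2100 higher and 8990 lower. Directions are therefore given under both scales. Past a 2-fold change in the main test, P2rx4, P2ry14, Adora2a and Adora2b were higher and Nt5e lower in each genotype, where 15.4% of all genes were higher and 14.3% lower in WT, 14.6% and 15% in GILZ KO, and 15% and 14% in GILZ TG. Nt5e, which counts among the lower genes, passed the filter on low counts through its untreated libraries alone.

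**Figure D2:**
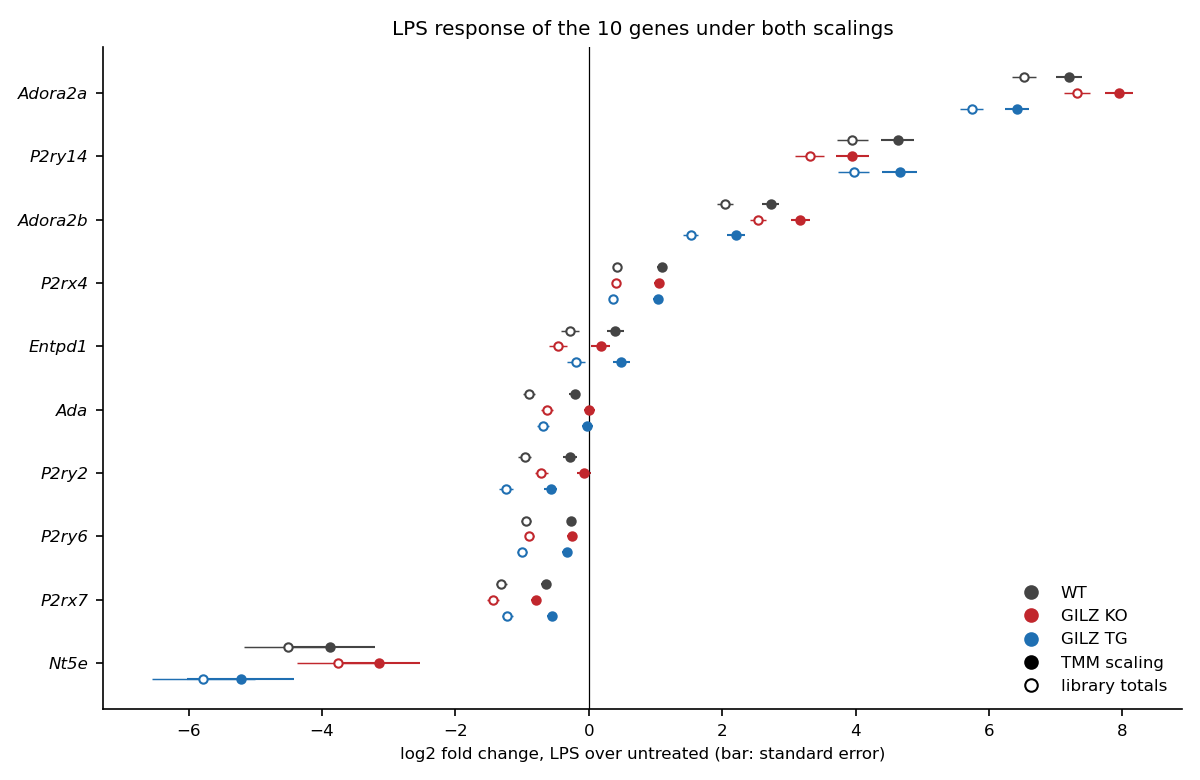
Log2 fold change of LPS over untreated (horizontal axis) for each gene and genotype, under TMM scaling (filled) and library totals (open), with standard errors. Adora2a, P2ry14, Adora2b and P2rx4 lay above 0 and P2rx7, P2ry6, P2ry2 and Nt5e below 0 on both scales in WT, and Entpd1 lay on different sides.

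The P2X channels moved in opposite directions after LPS. P2rx4, which encodes a channel found mainly on lysosomes and at the plasma membrane, measured 116, 108 and 106 TPM in the untreated WT libraries and 166, 158 and 139 TPM after LPS. In GILZ KO it measured 116, 121 and 115 TPM, and 150.3, 169 and 163 TPM after LPS. In GILZ TG the values were 113, 105 and 111 TPM, and 149, 156 and 137 TPM. No untreated library reached the lowest LPS library. The log2 change was 1.1 ± 0.07 (SE) in WT (edgeR adjusted p = 1.67e-10), 1.05 in GILZ KO and 1.04 in GILZ TG. On library totals it was smaller, 0.42 in WT, and still passed (edgeR adjusted p = 8.64e-06).

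P2rx7 was lower after LPS in every genotype. The untreated libraries held 23.8, 22.2 and 19.4 TPM in WT, 21.7, 25.4 and 22.3 TPM in GILZ KO, and 22.6, 22.4 and 19.5 TPM in GILZ TG. After LPS they held 8.99, 9.41 and 9.6 TPM in WT, 10.6, 10.6 and 8.78 TPM in GILZ KO, and 10.4, 12.0 and 9.52 TPM in GILZ TG. The treatments did not overlap. The log2 change was -0.64 ± 0.08 in WT (edgeR adjusted p = 8.87e-07), -0.79 in GILZ KO and -0.55 in GILZ TG, and -1.31 in WT on library totals. Since the ratio of P2rx4 to P2rx7 within a library does not depend on the scaling, it describes both channels at once. It was between 4.70 and 5.69 in the 9 untreated libraries and between 13 and 18.5 in the 9 LPS libraries.

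Of the P2Y receptors, P2ry14 increased and P2ry6 decreased. P2ry14, whose ligand is UDP-glucose, was scarce without LPS, at 2.26, 2.26 and 2.06 TPM in WT, 3.92, 3.4 and 3.45 TPM in GILZ KO, and 1.88, 1.42 and 2.55 TPM in GILZ TG. After LPS it measured 36.4, 30.9 and 37.3 TPM in WT, 32.3, 37.7 and 38.3 TPM in GILZ KO, and 26.5, 24.0 and 45.7 TPM in GILZ TG. The third GILZ TG library was the highest of all, while the other two were the lowest. The log2 change was 4.63 ± 0.25 in WT (edgeR adjusted p = 3.28e-11), 3.95 in GILZ KO and 4.66 in GILZ TG, and 3.95 in WT on library totals. P2ry14 lies within the gene Med12l on the opposite strand of chromosome 3. The library kit keeps strand, but whether the counting used it is not given in the sources used here. Med12l itself had 1 to 4 reads per untreated library and 41 to 91 after LPS, against 503 to 972 reads of P2ry14 after LPS.

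P2ry6 remained among the most abundant members in both treatments. It ranged from 151 to 184 TPM with a median of 169 TPM over the 9 untreated libraries, and from 84.6 to 100.03 TPM with a median of 89.5 TPM after LPS. The ranges did not overlap. The log2 change was -0.26 ± 0.07 in WT (edgeR adjusted p = 0.00436), -0.25 in GILZ KO and -0.33 in GILZ TG, and -0.94 in WT on library totals.

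P2ry2, a receptor for ATP and UTP that lies 21.9 kb from P2ry6 on chromosome 7, was the one of these 3 P2Y receptors with a difference between genotypes past the threshold after LPS. Untreated libraries contained 21.1, 17.6 and 17.6 TPM in WT, 20.6, 20.7 and 22.4 TPM in GILZ KO, and 19.3, 18.2 and 17.5 TPM in GILZ TG. After LPS they contained 9.05, 9.04 and 11.6 TPM in WT, 13.3, 11.6 and 14.5 TPM in GILZ KO, and 7.56, 7.59 and 8.94 TPM in GILZ TG. Every GILZ KO library was thus above every GILZ TG library after LPS. The log2 change to LPS was -0.28 ± 0.10 in WT (edgeR adjusted p = 0.0153), -0.57 in GILZ TG (edgeR adjusted p = 5.87e-05) and -0.07 in GILZ KO, where it did not pass (edgeR adjusted p = 0.554). On library totals P2ry2 passed as lower in all of them, with -0.96, -1.24 and -0.71. In WT the adjusted p was 0.0588 without LPS replicate 1 and 0.0729 without LPS replicate 2 (edgeR).

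Both adenosine receptors rose strongly with LPS. Adora2a was close to the limit of detection before treatment, with 4 to 20 reads per library. Its TPM was 0.2, 0.27 and 0.3 in untreated WT, 0.2, 0.13 and 0.21 in GILZ KO, and 0.44, 0.5 and 0.29 in GILZ TG. After LPS it was 22.2, 26.6 and 24.9 in WT, 31.2, 30.7 and 26.3 in GILZ KO, and 20.6, 21.3 and 27.3 in GILZ TG. The log2 change was 7.20 ± 0.19 in WT (edgeR adjusted p = 2.36e-15), 7.95 ± 0.21 in GILZ KO and 6.42 ± 0.18 in GILZ TG, and 6.53 in WT on library totals. The size of these changes rests on the few reads of the untreated libraries.

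Adora2b, the receptor with the lower affinity for adenosine, was well measured in both treatments, with 328 to 534 reads per untreated library and 1197 to 1895 after LPS. Without treatment its TPM was 18.2, 16.9 and 15.3 in WT, 13.7, 15.1 and 16.8 in GILZ KO, and 17.3, 18.5 and 18.2 in GILZ TG. After LPS it was 72.0, 74.8 and 69.0 in WT, 85.0, 83.3 and 95.8 in GILZ KO, and 48.4, 46.4 and 66.9 in GILZ TG. After LPS the GILZ TG libraries were all below WT and the GILZ KO libraries all above it, in TPM. On the TMM-scaled counts GILZ TG and WT overlapped, and GILZ KO and WT did not, as for 17% of all genes. Neither difference from WT passed the threshold. The log2 change was 2.73 ± 0.13 in WT (edgeR adjusted p = 6.75e-12), 3.17 ± 0.14 in GILZ KO and 2.21 ± 0.13 in GILZ TG, and 2.05 in WT on library totals. Adora2b exceeded Adora2a in all libraries, by a factor of 37.1 to 116 without treatment and 2.18 to 3.64 after LPS.

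Of the enzymes that convert nucleotides to adenosine, Entpd1 was expressed at a modest level and Nt5e at a very low one. Entpd1, which encodes CD39, measured 10.1, 11.2 and 9.59 TPM in untreated WT, 14.5, 10.3 and 10.5 TPM in GILZ KO, and 9.44, 6.45 and 9.34 TPM in GILZ TG. After LPS the values were 8.28, 8.67 and 8.76 TPM in WT, 7.81, 5.95 and 7.79 TPM in GILZ KO, and 6.21, 8.97 and 8.63 TPM in GILZ TG. In GILZ TG the treatments overlapped. Its direction depended on the scale: under TMM the log2 change was 0.40 ± 0.13 in WT (edgeR adjusted p = 0.014), 0.49 in GILZ TG (edgeR adjusted p = 0.00408) and 0.18 in GILZ KO, but -0.28, -0.19 and -0.46 on library totals. On library totals the change passed in GILZ KO alone (edgeR adjusted p = 0.00489). Accordingly, no direction is assigned to Entpd1. Its WT change under TMM also lost the threshold without untreated replicate 2 or 3 or LPS replicate 1 (edgeR adjusted p = 0.057, 0.0803 and 0.0657).

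Nt5e, which encodes CD73, was nearly undetectable in these macrophages. Untreated libraries held 37, 27 and 22 reads in WT, 43, 21 and 27 in GILZ KO, and 22, 26 and 16 in GILZ TG, which is 0.33 to 0.84 TPM. After LPS they held 0, 1 and 2 reads in WT, 4, 1 and 0 in GILZ KO, and 0, 0 and 1 in GILZ TG. Every LPS library was below every untreated one. Summed over the 9 libraries of a treatment there were 241 reads without and 9 with LPS, which relative to the library totals is 3.82% of the untreated level (95% exact interval 1.72% to 7.37%, counting error only). Fitted changes of -3.88 in WT, -3.15 in GILZ KO and -5.22 in GILZ TG passed the test (edgeR adjusted p = 6.83e-05, 0.000244 and 1.85e-05), but their size depends on the handling of counts near 0. Nt5e also entered this fit through its untreated libraries alone, a selection that favors a fall.

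Ada was expressed at a modest level. Untreated libraries contained 10.3, 10.5 and 10.6 TPM in WT, 9.6, 10.6 and 10.9 TPM in GILZ KO, and 8.57, 8.73 and 8.51 TPM in GILZ TG. LPS libraries contained 5.91, 5.62 and 6.05 TPM in WT, 6.9, 6.73 and 6.43 TPM in GILZ KO, and 5.51, 5.91 and 4.98 TPM in GILZ TG. In TPM no LPS library reached an untreated one. Relative to the bulk of the genes the fall was small: under TMM the log2 change was -0.21 ± 0.08 in WT (edgeR adjusted p = 0.0318), 0.01 in GILZ KO and -0.02 in GILZ TG, and on library totals -0.89, -0.63 and -0.69, which passed in all of them. The WT call under TMM did not hold without any 1 of the LPS libraries (edgeR adjusted p = 0.0561, 0.0884 and 0.0577), nor with DESeq2 (adjusted p = 0.147), with its size factors (0.0527), without a filter on low counts (0.0925), with a replicate block (0.0552) or in the 6 WT libraries alone (0.0928).

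Between genotypes, few differences in these genes passed the threshold after adjustment over all genes. Without treatment, 0 of the 10 genes passed in GILZ KO against WT, where 0.0951% of 12621 genes did, and 0 in GILZ TG against WT, where 0.642% did. At an unadjusted p under 0.05, 1 gene was found in each (P2ry14 and Ada), where 9.6% and 14.1% of all genes were. After LPS, 0 of 9 tested genes passed in GILZ KO against WT (0.0822% of 12164 genes) and 0 in GILZ TG against WT (0.46%), with 1 (P2ry2) and 2 (P2ry2 and Adora2b) at an unadjusted p under 0.05, where 9.63% and 15.2% of all genes were. Nt5e was not tested after LPS, as its reads were under the filter. On TMM-scaled counts, libraries did not overlap for 1 gene (P2ry14) in untreated GILZ KO against WT and for 1 (Ada) in untreated GILZ TG against WT, where 17.5% and 16.7% of all genes showed none. After LPS there were 4 in GILZ KO (P2ry2, Adora2b, Entpd1 and Ada) and 2 in GILZ TG (P2ry2 and Ada), where 17% and 16.5% of all genes showed none. The comparisons with WT share the WT libraries.

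GILZ KO and GILZ TG, which differ most in Tsc22d3, were compared directly. After LPS, 2 of 9 tested genes passed, P2ry2 and Adora2b, both higher in GILZ KO, where 2.6% of all genes passed and 1.22% were higher. P2ry2 differed by 0.70 ± 0.11 on the log2 scale (1.63-fold, edgeR adjusted p = 0.0141) and Adora2b by 0.70 ± 0.14 (1.63-fold, edgeR adjusted p = 0.0277). On TMM-scaled counts, GILZ KO and GILZ TG libraries did not overlap for either of them, nor for P2rx7 and Ada, and 23.2% of all genes showed no overlap in this comparison. Against WT, P2ry2 was 0.37 higher in GILZ KO (edgeR adjusted p = 0.341) and fell by 0.33 in GILZ TG (edgeR adjusted p = 0.203), and Adora2b was 0.28 higher in GILZ KO (edgeR adjusted p = 0.545) and fell by 0.42 in GILZ TG (edgeR adjusted p = 0.184). Both also passed with DESeq2 (adjusted p = 3.29e-05 and 0.000124) and with limma on log2(TPM + 1) (adjusted p = 0.0406 and 0.0244).

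The calls depended on single libraries, while the differences kept their sign. P2ry2 lost the threshold without GILZ KO replicate 1 or 3 or GILZ TG replicate 1 or 2, with edgeR adjusted p of 0.0652, 0.0659, 0.0591 and 0.0562. For Adora2b it was lost without any 1 of the GILZ KO libraries, without GILZ TG replicate 1 or 2, or without WT replicate 2, with adjusted p up to 0.118 (edgeR). Without GILZ TG replicate 3, of the 3 the library lowest in stromal, neutrophil and B-cell markers, the Adora2b difference was 0.90 (edgeR adjusted p = 0.000233), and Adora2a (0.50) and P2ry14 (0.51) passed as well (edgeR adjusted p = 0.00826 and 0.0191). Calls over all genes also moved with the library left out, from 24 to 1403, against 316 with none left out. The gain of calls is therefore not particular to these genes. Adora2b in the GILZ TG libraries was 48.4 and 46.4 TPM where the stromal markers summed to 80.2 and 109 TPM after LPS, and 66.9 TPM where they summed to 10.3. P2ry14 followed the same order, with 26.5, 24.0 and 45.7 TPM. The part of these other cells in the result was not tested.

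**Figure D3:**
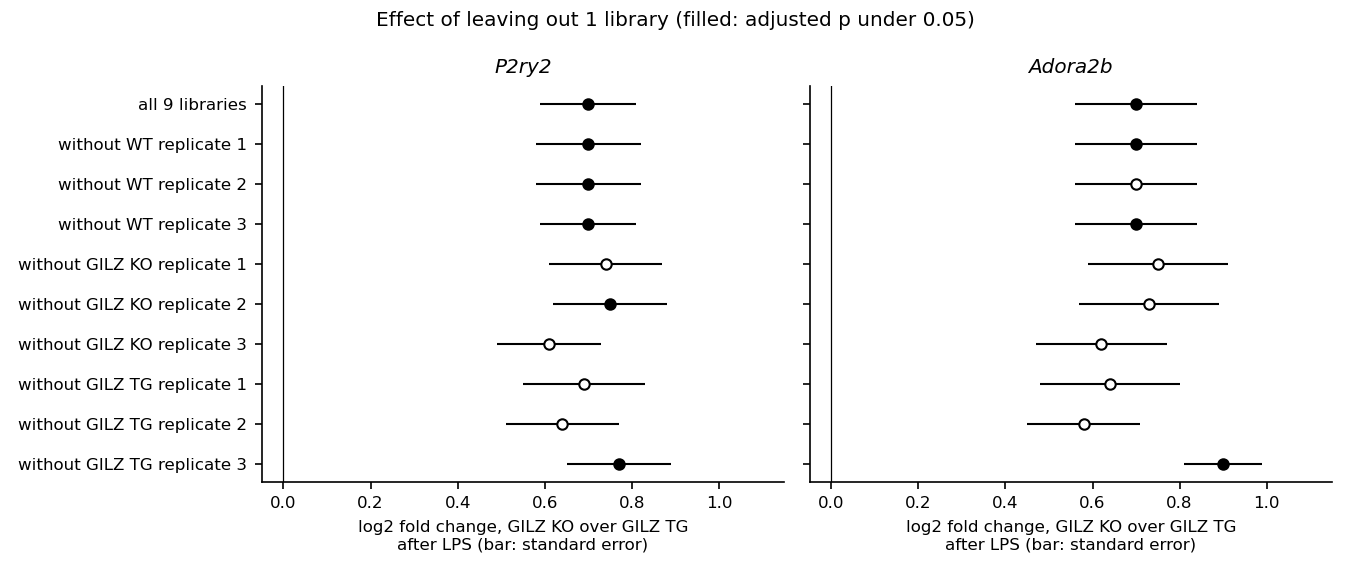
Log2 fold change of GILZ KO over GILZ TG after LPS with standard error (horizontal axis) for P2ry2 and Adora2b, with all 9 LPS libraries and with each left out in turn. Filled circles have an adjusted p under 0.05 (edgeR), the differences ranging from 0.61 to 0.77 for P2ry2 and from 0.58 to 0.90 for Adora2b.

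Without treatment, 0 of the 10 genes passed between GILZ KO and GILZ TG (4.94% of all genes did), and 5 were under an unadjusted p of 0.05, as were 24.6% of all genes. These were P2ry14, P2ry2 and Ada, higher in GILZ KO, and Adora2a and Adora2b, higher in GILZ TG. The same 5 genes had no overlap between the groups, as did 31.4% of all genes. Adora2a had only 4 to 20 reads per untreated library, with its highest mean in GILZ TG. Whether it passed the filter on low counts through that group was not examined, so its difference is not read further. P2ry14 came nearest, with 3.4 to 3.92 TPM in GILZ KO and 1.42 to 2.55 TPM in GILZ TG, a log2 difference of 0.82 ± 0.22 (edgeR adjusted p = 0.0628). It passed with DESeq2 (adjusted p = 0.0364), with limma on log2(TPM + 1) (adjusted p = 0.0482) and without GILZ TG replicate 3 (edgeR adjusted p = 0.01). Before LPS Adora2b had a log2 difference of -0.28 between GILZ KO and GILZ TG (edgeR adjusted p = 0.0813).

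Whether the response to LPS itself differed between genotypes was tested as an interaction over all 18 libraries. 0 of the 10 genes passed in any of the 3 comparisons of genotypes, where 0.0152% (GILZ KO and WT), 0.00759% (GILZ TG and WT) and 0.121% (GILZ KO and GILZ TG) of 13169 genes did. At an unadjusted p under 0.05 there were 1, 2 and 4 of them, against 6.36%, 3.09% and 9.92% of all genes. Adora2b was closest, its log2 response being larger in GILZ KO than in GILZ TG by 0.96 ± 0.18 (edgeR adjusted p = 0.0535). This value passed with DESeq2 (adjusted p = 0.000541), with limma on log2(TPM + 1) (adjusted p = 0.0295) and on library totals (edgeR adjusted p = 0.0196). It also passed with a block that paired untreated and LPS libraries of the same genotype and replicate number (difference 0.98, edgeR adjusted p = 0.0147). Leaving out 1 library, its adjusted p was between 0.000859 and 0.197 (edgeR). The next were Adora2a, with a difference of 1.53 ± 0.40 (edgeR adjusted p = 0.149), and P2ry2, with 0.50 ± 0.14 (edgeR adjusted p = 0.164).

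The remaining genes of the pathway were followed in lists by role. Of 41 that were found, 25 were measured well enough to be tested for the LPS response. In WT 10 were higher and 9 lower, in GILZ KO 10 and 11, and in GILZ TG 10 and 9, against 68.6%, 68.5% and 68.7% of all genes. Among 11 other receptors 5 were tested. P2ry13, an ADP receptor, rose by 3.57 ± 0.38 in WT on the log2 scale (TMM), from 0.42 to 3.23 mean TPM, and P2ry1, another ADP receptor, fell by 2.70, from 2.77 to 0.27 mean TPM (edgeR adjusted p = 2.25e-07 and 9.68e-08). P2ry13 and P2ry12 lie within Med12l like P2ry14, and the same limit of strand applies.

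Of 14 genes listed as other ectoenzymes or relatives of CD39, 8 were tested, and in WT 3 were higher and 4 lower. The 4 lower genes were all of the Entpd family, and whether their enzymes act at the cell surface was not examined. Enpp4, which hydrolyzes dinucleotides, rose from 1.19 to 46.2 mean TPM in WT, by 5.91 on the log2 scale (edgeR adjusted p = 9.01e-14). Cd38, the main NAD-consuming ectoenzyme of macrophages, rose from 7.16 to 70.4 mean TPM, by 3.93 (edgeR adjusted p = 8.02e-13). Entpd4, Entpd6 and Entpd7, relatives of CD39, were lower in WT on both scales, with log2 changes of -0.73, -1.28 and -0.87 under TMM and -1.40, -1.96 and -1.54 on library totals.

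Among intracellular enzymes, Nt5c3, a nucleotidase of pyrimidine monophosphates, rose from 33.8 to 501 mean TPM in WT (log2 change 4.49, edgeR adjusted p = 5.01e-16), while Nt5c2, a nucleotidase preferring IMP and GMP, fell from 41.1 to 16.4 mean TPM (-0.65, edgeR adjusted p = 5.57e-07). Of 11 genes of release and transport 7 were tested, with 3 higher and 3 lower in WT. The nucleoside carrier Slc28a2 rose from 14.1 to 364 mean TPM (5.25, edgeR adjusted p = 9.23e-14). The ATP-releasing channel Panx1 fell from 93.6 to 26.2 mean TPM (-1.48, edgeR adjusted p = 3.96e-12), as did the vesicular nucleotide transporter Slc17a9, from 8.62 to 1.84 mean TPM (-1.61, edgeR adjusted p = 1.63e-06).

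**Figure D4:**
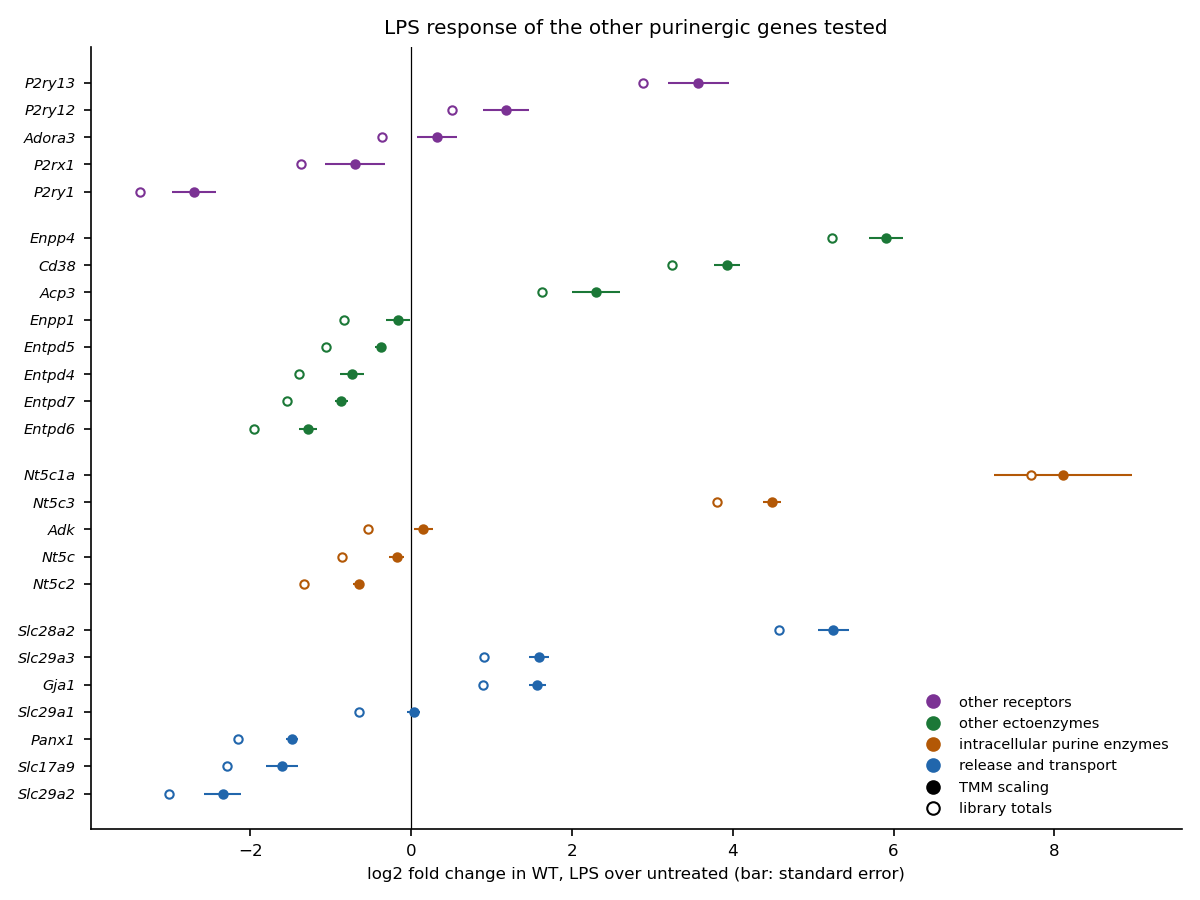
Log2 fold change of LPS over untreated in WT (horizontal axis) for the 25 other pathway genes tested, grouped by role, under TMM scaling (filled, with standard error) and library totals (open). Nt5c1a, Enpp4, Slc28a2, Nt5c3 and Cd38 lay above 3 on both scales. Panx1, Slc17a9, P2ry1, Slc29a2 and Entpd6 lay below -1 on both. Nt5c1a had the largest change (8.11 under TMM, 7.71 on library totals), but 0 to 1 reads per untreated library.

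Cd38 was the one gene of these lists to pass between a GILZ genotype and WT. It measured 6.09, 7.53 and 7.86 TPM in untreated WT, 4.59, 5.89 and 5.32 TPM in GILZ KO, and 3.64, 3.82 and 3.34 TPM in GILZ TG. After LPS it measured 57.0, 72.0 and 82.2 TPM in WT, 59.7, 68.5 and 72.8 TPM in GILZ KO, and 31.1, 36.8 and 43.0 TPM in GILZ TG. All 3 GILZ TG libraries were the lowest in both treatments. The log2 difference of GILZ TG from WT was -1.0 ± 0.14 without treatment (edgeR adjusted p = 0.0133) and -0.93 ± 0.15 after LPS (edgeR adjusted p = 0.0242). Without treatment it lost the threshold without WT replicate 2 or GILZ TG replicate 1 or 2 (edgeR adjusted p = 0.0883, 0.0576 and 0.0611), and after LPS without WT replicate 2 or 3, GILZ KO replicate 2 or GILZ TG replicate 1 or 2 (edgeR adjusted p = 0.114, 0.0714, 0.0519, 0.0939 and 0.112). After LPS, GILZ KO exceeded GILZ TG by 0.86 ± 0.15 (edgeR adjusted p = 0.0174, and 0.0572 to 0.083 without any 1 GILZ KO library or GILZ TG replicate 1 or 2), and without treatment GILZ KO and GILZ TG differed in Slc28a2 (0.53, edgeR adjusted p = 0.0356) and Panx1 (-0.22, edgeR adjusted p = 0.0437), each of which passed in 3 of the 9 fits with 1 library left out.

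Genes with the most similar course over the 18 libraries were sought among 10202 genes, by the root mean square difference of centered log2(TPM + 1). For P2rx4 they were Fxr1 (0.0706) and Coro1b (0.0792), for P2rx7 Ulk2 (0.0659) and Parp1 (0.0771), and for P2ry2 Acvr1b (0.102) and Pik3cg (0.131). P2ry14 was nearest to Trim30a (0.173) and Samd9l (0.194), which ranged from 27.5 to 46.0 and from 19.1 to 32.9 TPM without treatment and from 342 to 471 and from 199 to 268 TPM after LPS. Adora2a was nearest to Olfr56 (0.153) and Nfkbiz (0.175), and Adora2b to Stk40 (0.170) and Rras2 (0.191). Entpd1 was nearest to Ythdc2 (0.164) and Magt1 (0.168), Ada to Rbm19 (0.0798) and Syngr2 (0.0815), and P2ry6 to an unnamed gene and Zfp574 (0.0707). Nt5e was too low for this search. The libraries of a group share their treatment, and these distances are a description only.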

How the data were processed

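RNA-Seq of 18 BMM libraries was analyzed, 3 in each of 6 groups, as the labels assign them. Poly(A) libraries were made with a directional kit and read once over 75 nt. The authors checked reads with FastQC 0.11.2, processed them with grape-nf 1.1.3 and mapped them to GRCm38. The deposited data hold, per library, an expected count of each gene (an estimated number of reads, not normalized, in the layout of RSEM) and the authors' TPM, scaled by effective length and total. Expected counts were rounded. The authors' deposited DESeq2 1.40.2 tables hold fold changes and p-values of their comparisons, which were not used. Gene symbols were taken from these tables and positions from the GENCODE annotation of GRCm38. 0 columns of single samples were left unused.

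Genes with low counts were removed by filterByExpr, counts were normalized by TMM and tested in edgeR 4.0.16 (quasi-likelihood, R 4.3.3), with Benjamini-Hochberg adjustment over all genes tested and a threshold of 0.05. Genotypes were compared in a fit of the 9 libraries of a treatment. The LPS response and its differences between genotypes were fitted on all 18 libraries. Because a fit pools the spread, an arm with a library left out is assumed to vary like the others. Replicate numbers paired untreated and LPS libraries in GILZ TG (all 3 correlations of deviations over 0.1), but over all genotypes in 4 of 9 pairs, and across genotypes in 2 of 18 pairs, so that no block was used in the main test. Alternatives were DESeq2 1.42.0, limma 3.58.1 on log2(TPM + 1) and log2(TPM + 0.1), other size factors and filters, other sets of libraries, a replicate block and each library left out. The replicate block was the replicate number in the fits of a treatment. In the fits of all 18 libraries it paired untreated and LPS libraries of the same genotype and replicate number. Library totals as the scale were added after seeing the data. The tests were tested on simulated data.

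The 10 genes, the pathway lists and the marker lists were chosen with earlier results of these data known. Named were these 10 genes, up to 5 genes per pathway list that passed in a comparison, genes adjoining the 10, and for each of the 10 with a group mean of at least 5 TPM the 2 genes nearest in log2(TPM + 1). Of the names listed, 1 (Pnp) matched no symbol. Depth limits the genes with few reads. The p-values rest on the spread between libraries within groups of 3, pooled over the groups of a fit.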

Additional observations from a re-analysis of the deposited data

Results flagged for a closer look

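None of the 10 genes and none of the other pathway genes had an LPS response that passed as different between genotypes in the main test. Among the genes examined with them, Tsc22d3, the altered gene itself, did. Its log2 response to LPS was 2.02 ± 0.22 higher in GILZ KO than in WT (edgeR adjusted p = 0.000782) and 1.43 ± 0.16 higher in GILZ TG than in WT (edgeR adjusted p = 0.00139). In WT it went from 16.5 to 5.15 mean TPM, in GILZ KO from 2.34 to 2.91 and in GILZ TG from 156 to 132. Groups of 3 libraries are too small for a test of single outlying libraries.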

How the results depend on the processing

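Under the alternatives tried, 5163 of 5297 values of single genes kept their direction and side of the threshold, 90 lost a call, 27 gained one and 17 reversed. These values include genes far from the threshold, such as Tnf and Il6 after LPS, so they say little about the calls between genotypes. Between GILZ KO and GILZ TG after LPS, P2ry2 passed in 5 and Adora2b in 3 of the 9 fits with 1 library left out. Library totals, limma on log2(TPM + 1) and limma on log2(TPM + 0.1) turned the LPS response of Entpd1 to -0.28, -0.24 and -0.26 in WT, to -0.46, -0.63 and -0.70 in GILZ KO and to -0.19, -0.07 and -0.08 in GILZ TG. In the same order that of Ada in GILZ KO became -0.63, -0.57 and -0.63 and that of Tsc22d3 in GILZ TG -0.34, -0.24 and -0.24. That of Adora3 in GILZ KO became -0.03 on library totals and -0.01 with limma on log2(TPM + 0.1). These settings do not center the genes as TMM does. Of the 10 genes, DESeq2 and limma on log2(TPM + 1) each called 1 (P2ry14) between untreated GILZ KO and GILZ TG, where the main test called 0. Without a filter on low counts 1 (Adora2b) was called between GILZ TG and WT after LPS. For the response of GILZ KO against GILZ TG, 1 (Adora2b) was called with DESeq2, with library totals, without a filter, with at least 1 CPM in 3 libraries and with either limma setting. With the replicate block 1 was called there too, 9 in place of 10 passed in WT after LPS (Ada, edgeR adjusted p = 0.0552), and the number called in the other comparisons did not change. The cause was not tested. Leaving out 1 library gave 0 to 1 calls between untreated GILZ KO and GILZ TG, 0 to 2 between GILZ TG and WT after LPS, 0 to 4 between GILZ KO and GILZ TG after LPS and 0 to 2 for their difference in response. The highest of each was reached without GILZ TG replicate 3. Over all genes, the 316 calls between GILZ KO and GILZ TG after LPS ranged from 24 to 1403 with 1 library left out and from 147 to 822 otherwise, and the 623 without treatment from 79 to 1306 and from 264 to 1218. Few reads limit Nt5e in LPS libraries and Adora2a in untreated ones.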
